A study of Mus musculus with 8 samples.

Results

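The BCL2 family genes described here are 10 of the 54146 genes with a row in every library. Bcl2, Bcl2l1, Mcl1, Bax, Bak1, Bid, Bcl2l11, Bbc3, Pmaip1 and Bik were matched by symbol, and each symbol matched 1 row. RNA-seq libraries came from primary astrocytes cultured from the cortices of postnatal day 2 to 5 C57BL/6 pups. Mixed glia were infected with pLKO-puro lentivirus encoding a short hairpin RNA against Gstm1 (GSTM1 KD) or a non-silencing one (control KD), and infected cells were selected with puromycin. Astrocytes were then taken as the CD11b-negative fraction and cultured without stimulation (basal) or with TNF-α, a cytokine released in inflammation, at 50 ng/ml for 6 h. Each of the 4 groups held 2 biological replicates, so that both knockdown groups and all 8 libraries shared the virus backbone, the drug selection and the depletion of CD11b-positive cells. Whether more than 1 hairpin was used against Gstm1, and what tied a replicate number to a culture, is not given in the sources used here.

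Proteins of the BCL2 family set whether the outer membrane of the mitochondrion stays intact. The effectors BAX and BAK1 form pores through which cytochrome c leaves and caspases are switched on. BCL2, BCL-XL (from Bcl2l1) and MCL1 hold the effectors in check. The BH3-only proteins BID, BIM (from Bcl2l11), PUMA (from Bbc3), NOXA (from Pmaip1) and BIK bind those guardians, and some of them also bind the effectors directly. Death receptors of the TNF family reach mitochondria through BID, which caspase-8 cuts into its active form. Messenger RNA levels, which are what was measured, do not show cleavage, location or binding of these proteins.

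A short stretch of coding sequence is common to most of the family. The BH3 core is a leucine followed, after a gap of 3 residues, by glycine and aspartate, and it lies in the groove of a partner protein when family members pair. The stretches below show that core in 9 members, 5′ to 3′ on the coding strand, from GENCODE M21 transcripts (GRCm38). Capitals mark the leucine codon and the pair of codons for glycine or alanine and aspartate, with codons that differ between members. The sequence of Pmaip1 was not used here.
Bcl2: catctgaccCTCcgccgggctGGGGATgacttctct
Bcl2l1: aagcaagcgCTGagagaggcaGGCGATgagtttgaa
Mcl1: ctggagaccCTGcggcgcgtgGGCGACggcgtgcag
Bax: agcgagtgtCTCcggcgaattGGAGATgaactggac
Bak1: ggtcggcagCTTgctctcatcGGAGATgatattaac
Bid: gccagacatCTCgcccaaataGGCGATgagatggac
Bcl2l11: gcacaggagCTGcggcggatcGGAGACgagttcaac
Bbc3: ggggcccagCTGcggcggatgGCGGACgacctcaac
Bik: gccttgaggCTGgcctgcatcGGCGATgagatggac
In 8 of these the glycine form was found once in the longest coding sequence, and Bbc3 held the form with alanine. The pattern is short, and 13.4% of 21492 coding sequences held the glycine form, 24.0% either form, so that a match describes the letters and does not name a family member.

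Totals ran from 17349676 to 34434633 expected counts a library, and 3 counts, used as the floor of detection, stood for 0.0848 to 0.180 CPM (counts scaled to a common library total with TMM factors). Gstm1 itself, whose targeting checks the labels, was at 230 and 377 CPM in control KD and 29.0 and 31.3 CPM in GSTM1 KD without stimulation, then at 209 and 390 against 24.3 and 23.3 CPM after TNF-α. All 10 astrocyte markers were detected in every library, but their summed level was 3229 and 3315 CPM in control KD replicate 1 (basal and TNF-α) against 7203 and 7336 CPM in control KD replicate 2 and 6567 to 9600 CPM in GSTM1 KD. Control KD replicate 1 thus stood apart in both states. For the members, the knockdown differences and the calls are also given below without it. Gfap was the largest part of the astrocyte sums, and the 10 markers did not all go one way. S100b was at 7.38 and 9.26 CPM in control KD and 2.96 and 3.15 CPM in GSTM1 KD at rest. In each knockdown comparison 1 astrocyte marker passed as lower in GSTM1 KD and none as higher. Of all genes 10.2% passed at rest and 16.2% after TNF-α. The microglial markers Cx3cr1, P2ry12, Tmem119, Csf1r, Itgam and C1qa were each below 3 CPM in every library. The 8 markers of the oligodendrocyte lineage summed to 577 to 742 CPM in control KD and 466 to 535 CPM in GSTM1 KD with no overlap, and the 4 of fibroblasts to 233 to 367 against 131 to 235 CPM. The 6 endothelial and mural markers summed to 58.4 and 83.4 CPM in control KD against 93.6 and 95.6 CPM at rest, and to 30.3 and 36.0 against 52.0 and 57.1 CPM after TNF-α. Pdgfrb made up most of these sums, with means of 64.2 against 88.3 CPM at rest and 26.5 against 47.1 CPM after TNF-α. Kdr and Rgs5 were also higher in GSTM1 KD. Cdh5 went the other way, with means of 4.88 against 1.54 CPM at rest and 4.08 against 1.56 CPM after TNF-α. Pecam1 overlapped between the groups, and Cldn5 had no count. Whether these differences in makeup bear on the levels of the BCL2 family was not tested, and in such bulk samples a change in the share of a cell type and a change in RNA per cell cannot be told apart.

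Levels per transcript length, given as TPM (scaled for transcript length and to a common total), put Bax at the top in all 4 groups at 252 to 329 TPM. Bcl2l1 followed at 129 to 192 TPM and then Mcl1 at 94.8 to 186 TPM. These 3 genes did not overlap in 3 of the groups, while in control KD at the basal level Bcl2l1 (165 and 184 TPM) and Mcl1 (147 and 186 TPM) overlapped. Bcl2, which names the family, was a minor transcript here, at 8.95 to 23.6 TPM. In each library Mcl1 therefore exceeded Bcl2, by 9.99 and 10.6 times in control KD at the basal level and by 5.11 and 4.92 times in GSTM1 KD. Among the BH3-only members at the basal level Pmaip1 led in control KD (21.5 and 24.8 TPM). In GSTM1 KD Pmaip1 (16.8 and 18.3 TPM) overlapped with Bbc3 (16.1 and 23.1 TPM). Bad, a BH3-only gene outside the 10 members, stood above them at the basal level. It was at 45.5 and 54.0 TPM in control KD and 69.9 and 70.2 TPM in GSTM1 KD. Bcl2l11 held rank 9 in every group at 4.64 to 8.88 TPM. Bik was at or near the floor, with 1 to 6 counts in a library and at most 0.86 TPM, and did not pass the filter on low counts. The other 9 members entered every test.

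**Figure D1:**
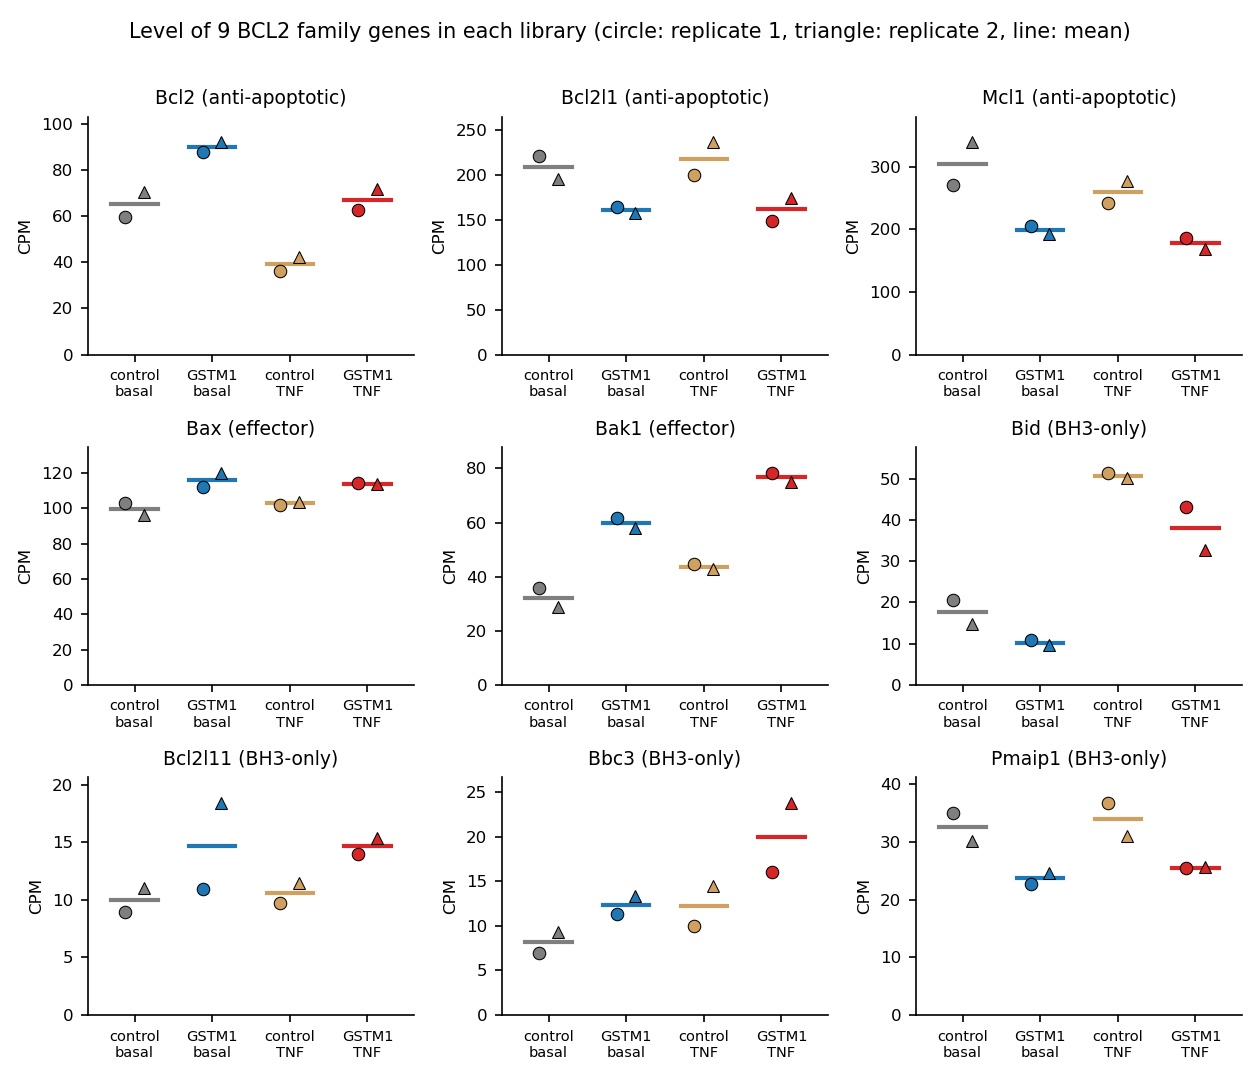
CPM (counts scaled to a common total with TMM factors) of 9 BCL2 family genes in each of the 8 libraries; circles are replicate 1, triangles replicate 2 and lines the mean of 2. Bak1 was higher in both GSTM1 KD libraries than in both control KD libraries of the same state, Mcl1 was lower, and Bid stood at 32.8 CPM or above in all 4 libraries with TNF-α and at 20.5 CPM or below in the others.

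The first comparison asked which family genes differed between GSTM1 KD and control KD astrocytes at rest. Bak1, an effector, was the gene that rose. Mcl1, Bcl2l1, Bid and Pmaip1 were at lower levels and Bcl2, Bax and Bbc3 at higher levels in both GSTM1 KD libraries, without passing the test. Tested by quasi-likelihood in edgeR, with p-values adjusted by Benjamini-Hochberg over 14899 genes, 1 of 9 members tested passed, where 10.2% of all genes did (4.6% higher and 5.62% lower). With a replicate block Mcl1, Bcl2l1, Bid, Pmaip1, Bcl2 and Bbc3 passed as well, where 4712 of 14899 genes did. What a replicate number marks is not given. The groups did not overlap for 8 of 9 members, 4 higher and 4 lower in GSTM1 KD, beside 63.5% of all genes. The median log2 fold change of the 9 was 0.22, beside 0.00 over all genes tested.

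The second comparison put the same question to astrocytes that had met TNF-α. Bak1 rose in GSTM1 KD again, Bcl2 rose and Mcl1 fell. These were 3 of 9 members (2 higher and 1 lower), where 16.2% of 14593 genes passed (7.26% higher and 8.92% lower). With a replicate block Bcl2l1, Bid, Bbc3 and Pmaip1 passed as well, where 4302 of 14593 genes did. None of the 9 members overlapped between the groups, 5 being higher and 4 lower, beside 66.6% of all genes. The median log2 fold change of the 9 was 0.12, beside -0.01 over all genes. The 2 knockdown comparisons share no library, but they may not be independent. Differences between replicate 2 and replicate 1 over 15332 genes correlated between the states, at 0.687 in control KD and 0.455 in GSTM1 KD.

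Among the anti-apoptotic genes, Mcl1 encodes a guardian that turns over within hours. It was at 271 and 339 CPM in control KD and at 206 and 192 CPM in GSTM1 KD at the basal level. After TNF-α the levels were 241 and 277 CPM in control KD and 187 and 169 CPM in GSTM1 KD. Both GSTM1 KD libraries thus lay below both control KD libraries in each state. After TNF-α Mcl1 was 1.48-fold lower (log2 fold change -0.57, SE 0.118, edgeR adjusted p = 0.0345). At rest it was 1.54-fold lower (log2 fold change -0.62, SE 0.144) with an adjusted p of 0.0536 in edgeR, just outside the threshold of 0.05. The resting difference of Mcl1 passed in 7 of 10 alternative settings, DESeq2 among them, and its highest adjusted p in the other 3 was 0.0614.

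Bcl2 went the opposite way to Mcl1. At rest it was at 59.5 and 70.6 CPM in control KD and at 87.8 and 92.0 CPM in GSTM1 KD, and after TNF-α at 36.2 and 42.2 CPM against 62.6 and 71.7 CPM. The GSTM1 KD libraries were the higher ones in both states, and those with TNF-α (62.6 and 71.7 CPM) stood beside 59.5 and 70.6 CPM in unstimulated control KD. The difference after TNF-α was 1.69-fold (log2 fold change 0.75, SE 0.125, edgeR adjusted p = 0.0218). At rest it was 1.38-fold (0.47 on the log2 scale, SE 0.120) and did not pass (edgeR adjusted p = 0.0662).

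Bcl2l1, the gene for BCL-XL, was at 221 and 196 CPM in control KD and 164 and 158 CPM in GSTM1 KD at rest. After TNF-α it was at 199.96 and 236 CPM against 149 and 174 CPM. GSTM1 KD was lower in both states with no overlap, by 1.29-fold at rest and 1.37-fold after TNF-α, and neither difference passed (edgeR adjusted p = 0.0951 and 0.0688). The difference after TNF-α passed in 5 of 10 alternative settings, DESeq2 among them (adjusted p = 0.0399). Of the 3 guardians among the members, the 2 abundant ones were thus lower and the scarce one higher in GSTM1 KD. The differences of Mcl1 and Bcl2 after TNF-α passed. Bcl2l2, an anti-apoptotic gene outside the members, exceeded Bcl2 in TPM in every library. It was higher in GSTM1 KD at rest without passing, and its groups overlapped after TNF-α.

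Bak1, the effector that sits on mitochondria in resting cells, showed the clearest difference between the knockdown groups. At rest it was at 35.6 and 28.6 CPM in control KD and at 61.6 and 58.1 CPM in GSTM1 KD. After TNF-α the levels were 44.6 and 42.7 CPM against 78.5 and 75.1 CPM. Even the lowest GSTM1 KD library at rest exceeded every control KD library, stimulated or not. The rise was 1.86-fold at rest (log2 fold change 0.90, SE 0.141, 95% interval 0.55 to 1.25, edgeR adjusted p = 0.0261). After TNF-α it was 1.73-fold (0.79, SE 0.0964, 95% interval 0.55 to 1.03, adjusted p = 0.0129). Without control KD replicate 1 in both states the log2 fold changes of Bak1 were 1.04 and 0.82, both past the threshold.

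Bak1 lies on the minus strand of chromosome 17 (GRCm38, chr17:27019810-27029009, ENSMUSG00000057789), and 25.5% of its exonic bases are shared with Ggnbp1 on the other strand. The libraries were made with a directional kit, but whether strand was used in counting is not given in the sources used here. Ggnbp1 was at 1.72 to 3.30 CPM in the 8 libraries, with groups that overlapped at rest (2.40 and 3.30 CPM in GSTM1 KD, 2.94 and 2.70 CPM in control KD), and its part in the counts of Bak1 was not tested. Over the 8 libraries, the genes whose log2 CPM was most like that of Bak1 among 15332 were Bloc1s5 (Pearson r = 0.994, Spearman rho = 0.929) and Ccz1 (r = 0.991, rho = 1). Bloc1s5 ran from 22.4 to 38.5 CPM and Ccz1 from 55.7 to 74.7 CPM, and the points fall into the 4 groups that the design made.

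Bax, the effector that waits in the cytosol, moved little. It was at 103 and 96.3 CPM in control KD and 112 and 120.2 CPM in GSTM1 KD at rest, and at 102 and 103 against 114.2 and 113.5 CPM after TNF-α. The log2 fold changes were 0.22 (95% interval -0.04 to 0.48) and 0.12 (-0.10 to 0.34), and neither passed in edgeR (adjusted p = 0.218 and 0.364). In TPM Bak1 was 0.124 and 0.107 of Bax in control KD at rest and 0.186 and 0.179 of it in GSTM1 KD. After TNF-α the ratios were 0.148 and 0.134 against 0.220 and 0.222. Bax stayed the main effector transcript in every library, with a larger share for Bak1 in GSTM1 KD.

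Bid and Pmaip1 were the BH3-only members at lower levels in GSTM1 KD. Bid was at 20.5 and 14.7 CPM in control KD and 10.9 and 9.61 CPM in GSTM1 KD at rest, a 1.72-fold difference that did not pass (log2 fold change -0.78, SE 0.217, edgeR adjusted p = 0.0764). Pmaip1, a p53 target whose product binds MCL1, was at 35.1 and 30.1 CPM against 22.6 and 24.7 CPM at rest, and at 36.8 and 31.0 against 25.4 and 25.7 CPM after TNF-α. Its log2 fold changes of -0.46 and -0.44 did not pass either (edgeR adjusted p = 0.0899 and 0.0827). For both genes all GSTM1 KD libraries lay below the control KD libraries of their state.

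Bbc3 and Bcl2l11 were the BH3-only members at higher levels in GSTM1 KD, both at low counts. Bbc3, the p53 target that encodes PUMA, was at 6.98 and 9.34 CPM against 11.4 and 13.4 CPM at rest and at 9.94 and 14.5 against 16.1 and 23.8 CPM after TNF-α. Its differences of 1.52-fold and 1.61-fold did not pass (edgeR adjusted p = 0.130 and 0.132). Bcl2l11, the FOXO target that encodes BIM, was at 8.93 and 11.0 CPM in control KD and 10.9 and 18.4 CPM in GSTM1 KD at rest. These groups overlapped, and the 2 GSTM1 KD libraries differed from each other more than the control libraries did. After TNF-α it was at 9.69 and 11.4 against 14.0 and 15.4 CPM (edgeR adjusted p = 0.122).

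**Figure D2:**
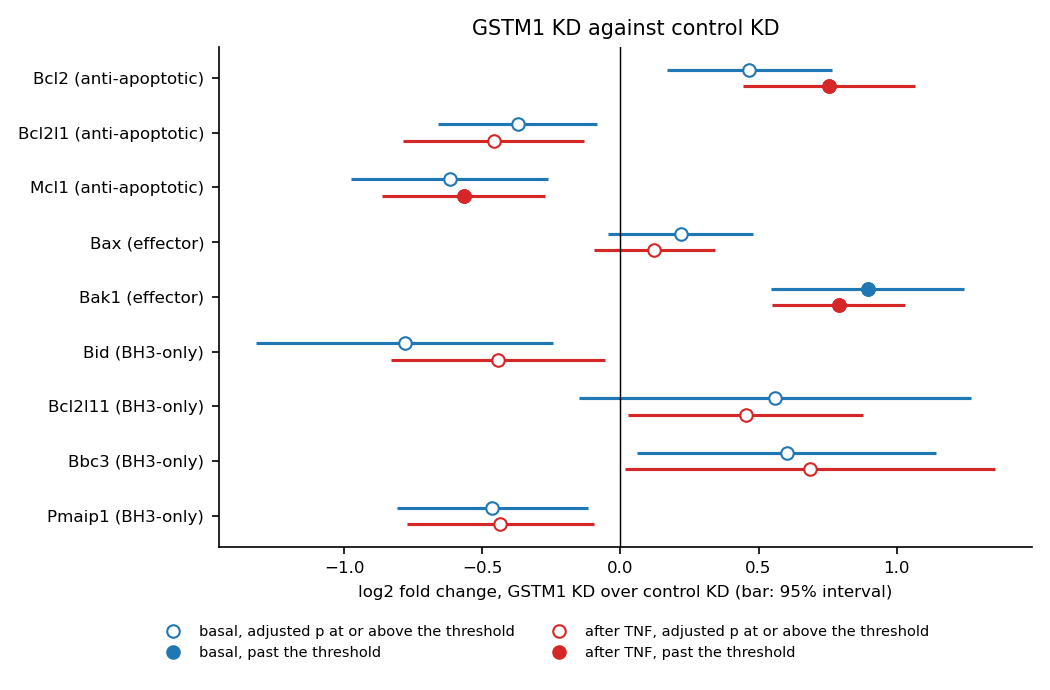
Log2 fold change of GSTM1 KD over control KD for the 9 members tested, at rest (blue) and after TNF-α (red), with 95% intervals from edgeR's fit; filled points passed an adjusted p of 0.05. Bak1 was past the threshold in both states at 0.90 and 0.79, Bcl2 (0.75) and Mcl1 (-0.57) after TNF-α, and the signs were the same in both states for all 9.

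Without either GSTM1 KD library of a state no member passed at rest or after TNF-α, where at most 94 genes of the whole table did. The spread then comes from the 2 control KD libraries alone, and the lone GSTM1 KD library is assumed to vary like them. Whichever library was left out, the log2 fold change of Bak1 stayed between 0.74 and 1.06 at rest and between 0.76 and 0.83 after TNF-α, and after TNF-α that of Mcl1 between -0.66 and -0.46 and that of Bcl2 between 0.65 and 0.87. Without control KD replicate 1 of the same state 2 members passed at rest and 4 after TNF-α, where 2185 of 15263 and 2703 of 14770 genes did. Without control KD replicate 2 the members were 7 and 5, where 5256 of 15352 and 5028 of 15274 genes passed. In the fit without control KD replicate 1 in both states, the log2 fold changes at rest and after TNF-α were 0.33 and 0.65 for Bcl2, -0.30 and -0.57 for Bcl2l1 and -0.79 and -0.66 for Mcl1. They were 0.25 and 0.11 for Bax, -0.54 and -0.42 for Bid, 0.39 and 0.34 for Bcl2l11, 0.38 and 0.43 for Bbc3 and -0.37 and -0.30 for Pmaip1. The signs of these 8 members were those of the fits with that replicate, and the resting differences of Bcl2, Bcl2l1, Bid, Bcl2l11, Bbc3 and Pmaip1 were smaller without it.

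The TNF-α responses were tested next, within each knockdown group. In control KD astrocytes Bid rose and Bcl2 fell, and in GSTM1 KD astrocytes Bid rose. These were 2 of 9 members in control KD, where 2.63% of 15332 genes passed (2.1% higher and 0.528% lower). In GSTM1 KD 1 of 9 passed, where 2.65% of genes did (2.35% higher and 0.294% lower). The groups did not overlap for 4 of 9 members in control KD (3 higher, 1 lower, beside 34.5% of all genes) and for 6 of 9 in GSTM1 KD (4 higher, 2 lower, beside 44.5%). The median log2 fold change of the 9 was 0.06 (control KD) and 0.00 (GSTM1 KD), beside -0.02 and -0.01 over all genes. The responses share each state's libraries with the knockdown comparisons.

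Bid, the link from death receptors to mitochondria, had the largest response of the 9. It went from 20.5 and 14.7 CPM at rest to 51.5 and 50.1 CPM with TNF-α in control KD, and from 10.9 and 9.61 to 43.2 and 32.8 CPM in GSTM1 KD. Every stimulated library was above every unstimulated one. The rise was 2.88-fold in control KD (log2 fold change 1.53, SE 0.195, 95% interval 1.07 to 1.98, edgeR adjusted p = 0.0101). In GSTM1 KD it was 3.70-fold (1.89, SE 0.202, 95% interval 1.41 to 2.36, adjusted p = 0.00425). In TPM, Bid went from rank 7 of the 10 members to rank 4 in control KD and from rank 8 to rank 5 in GSTM1 KD. Its TPM overlapped with that of Bcl2 in unstimulated control KD and with that of Bbc3 in stimulated GSTM1 KD. After TNF-α the GSTM1 KD libraries lay below the control KD libraries (1.36-fold, edgeR adjusted p = 0.105).

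The rise of Bid in control KD passed whichever control KD library was left out, with log2 fold changes of 1.32 to 1.79, but not in a fit of the 4 control KD libraries alone, where 72 genes of the table passed. In GSTM1 KD it did not pass without GSTM1 KD basal replicate 1 or replicate 2, with log2 fold changes of 1.99 and 1.80. Calls over the whole table also fell in those fits, which leave 1 library in that group. Exons of Bid (chr6:120891930-120916853, minus strand, ENSMUSG00000004446) share 17.7% of their bases with Bcl2l13 on the other strand. Bcl2l13 was at 71.6 and 71.9 CPM at rest and 74.7 and 79.8 CPM with TNF-α in control KD, and at 59.97 and 62.2 against 69.7 and 70.2 CPM in GSTM1 KD. Its log2 fold changes of 0.11 and 0.20 did not pass in edgeR (adjusted p = 0.733 and 0.387).

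Bcl2 was the member that fell with TNF-α. In control KD it went from 59.5 and 70.6 to 36.2 and 42.2 CPM, and in GSTM1 KD from 87.8 and 92.0 to 62.6 and 71.7 CPM. The stimulated libraries were the lower ones in both. The fall was 1.66-fold in control KD (log2 fold change -0.73, SE 0.126, edgeR adjusted p = 0.0293), and the 1.34-fold difference in GSTM1 KD did not pass (-0.42, SE 0.124, adjusted p = 0.195). The call in control KD was lost without control KD basal replicate 2 (adjusted p = 0.113), control KD TNF replicate 1 (0.126) or control KD TNF replicate 2 (0.0694), without replicate 1 of both states (0.0547), and in the fit of only the 4 control KD libraries (0.192), with log2 fold changes of -0.60 to -0.83 over these fits. With TNF-α Bcl2 held rank 8 of the 10 members in TPM in both knockdown groups, and in GSTM1 KD it overlapped with Pmaip1.

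The windows before the starts of Bid and Bcl2, the members that answered TNF-α in opposite directions, are shown because NF-κB, the main transcription factor downstream of the TNF receptor, binds κB sites. They hold the 250 bases before the RefSeq start on the gene's strand, 5′ to 3′ (GRCm38.p6), at chr6:120916825-120917074 for Bid and chr1:106714291-106714540 for Bcl2, both on the minus strand. Capitals mark GC boxes, read as GGGCGG on either strand.
Bid: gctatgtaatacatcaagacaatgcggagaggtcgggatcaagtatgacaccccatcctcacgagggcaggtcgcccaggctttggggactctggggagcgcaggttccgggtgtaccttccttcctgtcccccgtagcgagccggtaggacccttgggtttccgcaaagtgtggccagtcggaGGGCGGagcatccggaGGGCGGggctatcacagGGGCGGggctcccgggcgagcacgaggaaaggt
Bcl2: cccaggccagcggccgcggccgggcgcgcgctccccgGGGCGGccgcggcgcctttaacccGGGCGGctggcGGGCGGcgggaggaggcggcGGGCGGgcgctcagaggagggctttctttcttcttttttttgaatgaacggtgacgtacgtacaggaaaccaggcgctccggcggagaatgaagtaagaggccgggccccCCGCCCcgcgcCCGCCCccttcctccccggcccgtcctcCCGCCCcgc
Bid held 3 GC boxes and Bcl2 held 7, and 32.7% of 32851 such windows in RefSeq hold at least 1. Neither window held the κB consensus on either strand, which 7.25% of windows do, nor TATAAA, which 12.4% do. Of the 13 windows that RefSeq gives for 8 members, the κB consensus was in 1 of 3 windows of Bcl2l1 and 1 of 3 of Bbc3, and the p53 half-site, found in 7.13% of windows, was in that of Bax. The κB and GC box patterns can share bases. No binding was measured in these samples.

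The other members showed no response to TNF-α that passed in the main fit. In alternative settings Bak1 passed in 1 of 10 in control KD, and Bbc3 in 1 of 10 in control KD and 2 of 10 in GSTM1 KD. Bak1 was higher with TNF-α in all 4 stimulated libraries than in the unstimulated ones of its knockdown group, with log2 fold changes of 0.44 (95% interval 0.17 to 0.71) in control KD and 0.36 (0.09 to 0.63) in GSTM1 KD, and did not pass in edgeR (adjusted p = 0.129 and 0.247). Bbc3 gave 0.58 and 0.69 (adjusted p = 0.468 and 0.386). Bax, Bcl2l1, Bcl2l11 and Pmaip1 were within 0.11 of 0 on the log2 scale in both knockdown groups. Mcl1 gave -0.24 and -0.16 (adjusted p = 0.607 and 0.891).

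**Figure D3:**
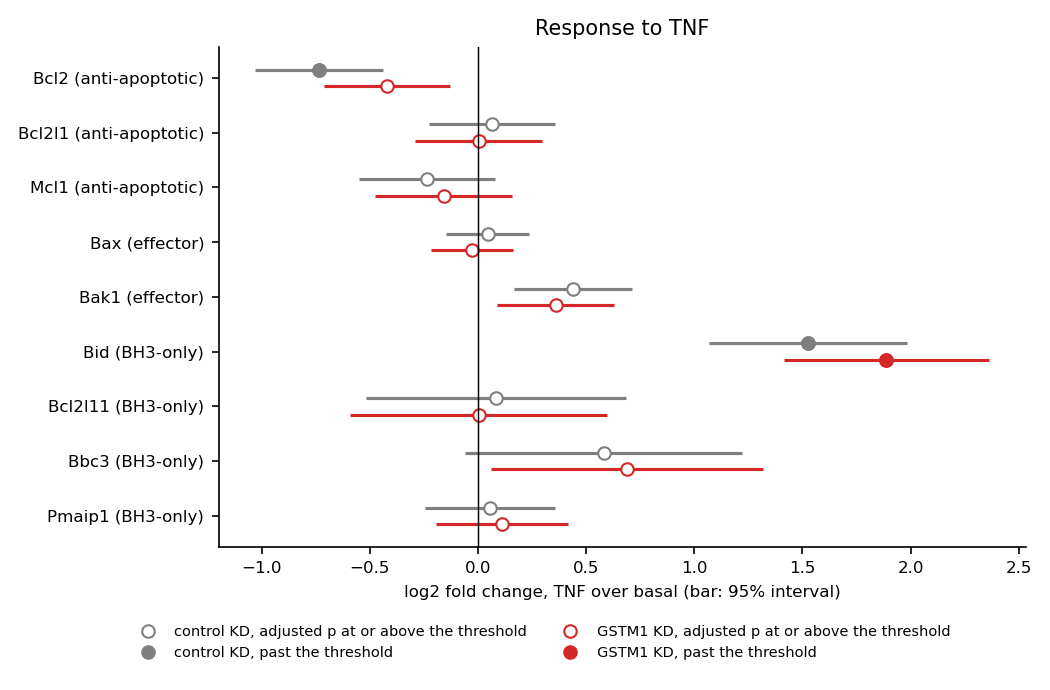
Log2 fold change of TNF-α over basal for the 9 members tested, in control KD (grey) and GSTM1 KD (red), with 95% intervals from edgeR's fit of 8 libraries; filled points passed an adjusted p of 0.05. Bid (1.53 and 1.89) stands apart from the other members, and Bcl2 has the lowest values, -0.73 in control KD, past the threshold, and -0.42 in GSTM1 KD, not past it.

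Whether GSTM1 KD changed the response itself was tested as the interaction of knockdown and TNF-α. No member passed, and 0% of 15332 genes did in edgeR, where 295 genes had an unadjusted p under 0.05 and DESeq2 called 27 genes, no member among them. The responses of Bid differed by 0.36 on the log2 scale (95% interval -0.28 to 1.01), and those of Bcl2 by 0.31 (-0.10 to 0.73). For Bak1 the difference was -0.08 (-0.46 to 0.30) and for Mcl1 0.08 (-0.37 to 0.52). The intervals leave room for sizeable differences in both directions for most members.

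Summed by role in TPM, the 10 members kept nearly the same total in all libraries, 693 to 748 TPM, while its makeup differed. The 3 anti-apoptotic genes made 49.5% and 52.7% of it at rest in control KD against 40.9% and 38.6% in GSTM1 KD, and 44.6% and 47.5% against 35.5% and 36.9% after TNF-α. The 2 effectors made 42.1% and 39.9% against 51.9% and 53.1% at rest, and 42.6% and 40.4% against 52.6% and 50.8% after TNF-α. Effector transcripts were thus the minority in all 4 control KD libraries and the larger part in all 4 GSTM1 KD libraries.

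As a ratio, effectors over anti-apoptotic genes stood at rest at 0.851 and 0.757 in control KD against 1.27 and 1.37 in GSTM1 KD. With TNF-α it stood at 0.954 and 0.850 against 1.48 and 1.38. Control KD replicate 1 gave the higher of the control ratios in both states, so that the gap to GSTM1 KD is larger without it. The BH3-only genes summed to 7.15% to 8.37% of the total in the 4 unstimulated libraries and 11.9% to 12.8% in the stimulated ones. Bid was the 1 of them that passed with TNF-α, and between the knockdown groups their sum joins members that were lower (Bid, Pmaip1) and higher (Bbc3, Bcl2l11) in GSTM1 KD. These sums over chosen members are a description, with no test.

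**Figure D4:**
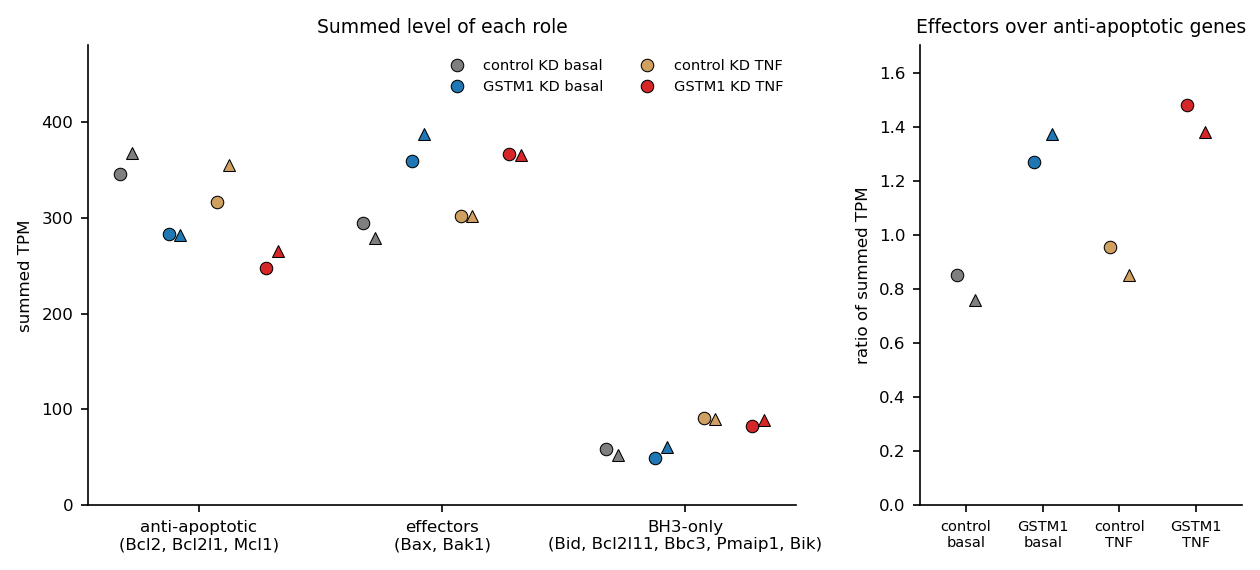
Left, summed TPM of the anti-apoptotic, the effector and the BH3-only genes among the 10 members in each library. Right, the ratio of summed effector to summed anti-apoptotic TPM (circles are replicate 1, triangles replicate 2). The ratio is below 1 in all 4 control KD libraries (0.757 to 0.954) and above 1 in all 4 GSTM1 KD libraries (1.27 to 1.48).

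Of 16 further family genes, 8 had counts high enough to be tested in the knockdown comparisons and none passed, beside 10.2% of all genes at rest and 16.2% after TNF-α. Bok, a relative of the effectors, was at 12.1 and 11.1 CPM in control KD and 7.29 and 6.01 CPM in GSTM1 KD at rest, and at 9.04 and 10.9 against 5.91 and 5.57 CPM after TNF-α. Its log2 fold changes were -0.80 and -0.82 (edgeR adjusted p = 0.0580 and 0.0503), the opposite sign to Bak1. Bad, a BH3-only gene whose product is held by phosphorylation, gave 0.46 and 0.47 (0.0896 and 0.0619). Bcl2l2, an anti-apoptotic gene, gave 0.44 and 0.35 (0.0781 and 0.237), with groups that overlapped after TNF-α.

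Bmf, a BH3-only gene, was at 1.46 to 5.86 CPM with log2 fold changes of 0.92 and 0.64 (edgeR adjusted p = 0.274 and 0.280). The mitophagy receptors gave 0.24 and 0.22 (Bnip3), 0.26 and 0.31 (Bnip3l) and -0.23 and -0.17 (Bcl2l13), and Bcl2l12 gave 0.06 and -0.06. The list's median was 0.25 at rest and 0.27 after TNF-α. Bcl2l10, Bcl2l14 and Bcl2a1c had no count in any library, and Hrk, Bcl2l15, Bcl2a1a and Bcl2a1d at most 7 counts. Bcl2a1b, an anti-apoptotic gene of blood-derived cells, had 20 and 11 counts in control KD replicate 1 and 0 to 2 in the other 6 libraries. The microglial gene Itgam was likewise at 1.72 and 1.51 CPM in that replicate and at most 0.369 CPM elsewhere. In the TNF-α responses 9 of the 16 were tested and none passed, beside 2.63% and 2.65% of all genes.

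A list of 14 genes of the mitochondrial death pathway outside the family held cytochrome c, the apoptosome, caspases (with Casp8, which cuts BID) and the channels Vdac1, Vdac2 and Vdac3. Diablo, whose product frees caspases from their inhibitors, was the 1 that passed in each knockdown comparison, beside 10.2% and 16.2% of all genes. It was at 46.2 and 39.7 CPM in control KD and 21.2 and 21.8 CPM in GSTM1 KD at rest, and fell by 1.00 on the log2 scale (SE 0.133, edgeR adjusted p = 0.0203). After TNF-α it was at 43.0 and 41.3 against 24.6 and 21.5 CPM (-0.90, SE 0.125, adjusted p = 0.0164). Apaf1, the scaffold of the apoptosome, rose with TNF-α in GSTM1 KD by 0.43 (adjusted p = 0.0433) and was the 1 that passed in the responses, beside 2.65% of all genes there and 2.63% in control KD, where no gene of the list did. The list's median was 0.12 at rest and 0.16 after TNF-α.

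Of 16 genes of the p53 pathway outside the BCL2 family, 3 passed at rest and 2 after TNF-α, where 10.2% and 16.2% of all genes did. Sesn1, which restrains mTOR, rose by 0.88 and 0.93 on the log2 scale in GSTM1 KD (edgeR adjusted p = 0.0420 and 0.0180). Zmat3 fell by 0.58 and 0.54 (0.0300 and 0.0293), and the death receptor gene Fas fell by 1.10 at rest (0.0282). The medians were -0.25 and -0.20. With TNF-α, control KD showed a rise of Btg2 (0.98) and Eda2r (0.57). In GSTM1 KD 5 genes rose, and those with the smallest p were Trp53 (0.99), Eda2r (0.72), Btg2 (0.81) and Phlda3 (0.44). The shares of all genes that passed in these responses were 2.63% and 2.65%.

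A list of stress-response and FOXO pathway genes, with factors known to switch on BH3-only genes, held 10 genes. Of these 1 rose and none fell in GSTM1 KD at rest, and 1 rose and 2 fell after TNF-α, where 10.2% and 16.2% of all genes passed. Atf3, a stress-induced factor, rose in GSTM1 KD by 0.91 and 0.68 (edgeR adjusted p = 0.0299 and 0.0317). It also rose with TNF-α in both knockdown groups (0.93 and 0.72). Foxo1 and Myc fell in GSTM1 KD after TNF-α, by 0.57 and 1.04 (0.0397 and 0.0401). Myc was then at 106 CPM in control KD replicate 1 and 66.2 CPM in replicate 2, against 43.7 and 41.8 CPM in GSTM1 KD. Ddit3, the factor CHOP of the unfolded protein response, was at 47.9 and 44.2 CPM in control KD replicate 1 and 18.5 to 24.3 CPM in the other 6 libraries. Whether that bears on the BH3-only genes was not tested.

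NF-κB targets of survival and feedback were listed as 12 genes. Of these 7 rose with TNF-α in each knockdown group and none fell, beside 2.63% (control KD) and 2.65% (GSTM1 KD) of all genes that passed. The ubiquitin ligase gene Birc3 (3.08 and 3.73 on the log2 scale), Nfkbia (3.31 and 3.81), Relb (2.35 and 2.75) and Nfkb2 (2.09 and 2.07) had the smallest p, with edgeR adjusted p between 0.000239 and 0.000459. These rises were larger than those of Bid, and the list's median was 1.48 and 1.38. In GSTM1 KD against control KD, Birc3 fell by 1.64 at rest and 1.01 after TNF-α, and Tnfaip3, which ends NF-κB signalling, by 1.79 and 0.88. Ier3 fell after TNF-α by 1.26, and no gene of the list rose, where 10.2% and 16.2% of all genes passed. Stimulated GSTM1 KD astrocytes thus held Birc3 at 42.1 and 35.7 CPM, where control KD held 79.6 and 74.3 CPM.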

How the data were processed

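RNA-seq libraries of 4 groups with 2 biological replicates each were analysed. Per the labels and the study's methods, the authors used a directional kit, STAR 2.5.4b and RSEM 1.3.0 on GRCm38. The deposited expected counts are RSEM estimates, not normalized and not always whole. The deposited TPM values, also from RSEM, are scaled to the same total per library and were used only to compare levels between genes.

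Expected counts were rounded and tested with edgeR 4.0.16 in R 4.3.3 (TMM factors, filterByExpr, quasi-likelihood F-test, Benjamini-Hochberg adjustment over all genes, threshold 0.05). Knockdown comparisons used the 4 libraries of a state, and TNF-α responses and their difference all 8. Intervals of 95% come from the fit. The p-values rest on the spread between the 2 replicates of a group, pooled over all groups in a fit and moderated with that of other genes. Positions and exon overlaps are those of GENCODE M21, and windows before start sites those of RefSeq (GRCm38.p6), matched for 8 of 10 members. Procedures were tested on simulated counts.

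The members, gene lists and named genes were chosen with earlier results of these data known. Named are all members, all 16 other family genes, in each further list up to 4 genes per comparison with the smallest p past the threshold, Gstm1, and the 2 genes most correlated with a member that passed in both states. Alternatives were DESeq2 1.42.0, other size factors, other filters, a replicate block, effective lengths as offsets (deposited by the authors, in bases), edgeR's other quasi-likelihood method, all 8 or 4 libraries, and leaving out each library. The fit without control KD replicate 1 in both states was chosen after seeing the data. Figures were drawn with matplotlib 3.10.9.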

Additional observations from a re-analysis of the deposited data

How the results depend on the processing

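Bak1 passed in both knockdown comparisons, and Mcl1 and Bcl2 after TNF-α, under all 10 settings other than leaving out 1 library; Bid passed in GSTM1 KD under 10 of 10 and in control KD under 9 of 10, and Bcl2 in control KD under 8 of 10. The number of members that passed at rest was 1, and became 3 with DESeq2, 3 with library size only, 6 with no filter, 2 with edgeR's other quasi-likelihood method, 5 with all 8 libraries, and 2 without control KD replicate 1 in both states (chosen after seeing the data). After TNF-α it was 3, and became 7 with no filter and 4 with DESeq2, with all 8 libraries and without control KD replicate 1 in both states, Bcl2l1 being the member added in these 3 settings. For the TNF-α response it was 2 in control KD, and became 0 with only the 4 libraries compared and 1 without control KD replicate 1 in both states, and it was 1 in GSTM1 KD, and became 3 with no filter. Leaving out 1 library gave 0 to 7 members at rest, 0 to 5 after TNF-α, 1 to 3 for the response in control KD and 0 to 1 in GSTM1 KD, and 0 for the difference of responses in every setting.

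With a replicate block, 7 members passed at rest and 7 after TNF-α (Bcl2, Bcl2l1, Mcl1, Bak1, Bid, Bbc3 and Pmaip1 in both), 4 for the response in control KD and 3 in GSTM1 KD. The labels do not say what a replicate number marks. Deviations of same-numbered libraries correlated at 0.220 to 0.687 between groups over 15332 genes, from 2 numbers only. Over the whole table, calls at rest were 1524 and became 2492 with DESeq2, 3957 with no filter, 4712 with the block and 2762 with all 8 libraries. After TNF-α 2360 became 4540 with no filter and 4302 with the block. For the response in control KD 403 became 742 with DESeq2, 1255 with no filter, 988 with the block and 72 with 4 libraries, and in GSTM1 KD 406 became 630, 1050, 808 and 691, and 683 without control KD replicate 1. For the difference of responses 0 became 27 with DESeq2 and 134 with no filter.

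Values near 0 changed sign, and the cause was not tested. The response of Bcl2l1 in GSTM1 KD (log2 fold change 0.0025) became -0.0050 with DESeq2, -0.0051 with its size factors, -0.043 with library size only, -0.012 with no filter, -0.0052 with at least 10 counts in every library and -0.00056 with the block. That of Bcl2l11 (0.0028) became -0.0073, -0.0074, -0.039, -0.0099 and -0.0068 with the first 5 of these, and -0.24 with effective lengths, which also made the difference of responses -0.041 for Mcl1 and -0.081 for Bbc3. Leaving out 1 library gave differences of responses of -0.25 to 0.055 for Bak1, -0.21 to 0.38 for Bbc3, -0.19 to 0.045 for Bcl2l1, -0.41 to 0.33 for Bcl2l11, -0.10 to 0.23 for Mcl1 and -0.080 to 0.19 for Pmaip1. It gave responses of -0.044 to 0.18 (Bcl2l1), -0.060 to 0.25 (Bcl2l11) and -0.078 to 0.19 (Pmaip1) in control KD, and -0.075 to 0.028 (Bax), -0.11 to 0.11 (Bcl2l1) and -0.32 to 0.43 (Bcl2l11) in GSTM1 KD. Bik was at or near the floor of 3 counts, and the part of depth in the other results was not tested.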

Other observations

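The effective length that RSEM gave each gene, which follows its mix of transcripts, was nearly even across libraries for most members. It ran from 1030 to 1359 bases for Bbc3 and from 2978 to 4087 bases for Bcl2l11, the widest ranges among the members other than Bik, so that levels of these genes in TPM and in CPM need not move together. With effective lengths as offsets the response of Bcl2l11 to TNF-α in GSTM1 KD was -0.24 on the log2 scale, and no member's call in the knockdown comparisons was lost.

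Mitochondrially encoded genes took 1.21% to 1.51% of the counts in the 4 control KD libraries and 1.87% to 1.99% in the 4 GSTM1 KD libraries, with no overlap. Their part in the levels of the BCL2 family was not tested.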
